A study of Mus musculus with 2 samples.

Results

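Mir138-1 and Mir138-2 are the 2 mouse genes that make the microRNA miR-138, and they were taken here by their symbols in GENCODE annotation M21, as 2 of the 2202 miRNA genes in each deposited table. MicroRNAs are cut from hairpin precursors. One strand of the short duplex is loaded onto an Argonaute protein and guides it to messenger RNAs that match its seed, bases 2 to 8, which lowers their translation or stability. miR-138 is known as a brain-enriched microRNA. In rat hippocampal neurons it is known to restrain the growth of dendritic spines, the protrusions that carry excitatory synapses, by repressing Lypla1, which encodes the depalmitoylating enzyme APT1.

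The study sequenced small RNA (fragments under 30 nt) of tissue labelled as a layer of the hippocampus. The mice were males of strain B6CASTF1/J, the F1 hybrid of C57BL/6J and CAST/EiJ, aged 2 months, and the counts do not separate the parental alleles. It has 1 group of 2 libraries, named biological replicates 2 and 1. No treatment, mutation or second tissue was present, so the values below describe levels and compare genes and libraries, not conditions. The labels give each library its own biosample but a single donor entry, so spread and p-values refer to these 2 libraries, and whether they span separate animals is not known. The miRNA genes received 3414105 counts out of 10003856 reads in replicate 2 and 2322520 counts out of 6441333 reads in replicate 1. A level is given in CPM, counts per 1000000 counts on miRNA genes.

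Both genes carry the same 5p product and different 3p products. The hairpins are printed because the part they share decides which reads can be told apart, with that part in capitals (GENCODE M21 transcripts, identical to the RefSeq hairpins).
Mir138-1 hairpin: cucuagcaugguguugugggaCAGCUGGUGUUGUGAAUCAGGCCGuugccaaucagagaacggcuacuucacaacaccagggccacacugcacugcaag
Mir138-2 hairpin: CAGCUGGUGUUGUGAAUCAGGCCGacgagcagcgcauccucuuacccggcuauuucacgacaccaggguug
The longest stretch common to both hairpins is 24 nt, which is 24.2% of the 99 nt Mir138-1 hairpin and 33.8% of the 71 nt Mir138-2 hairpin. It starts 1 nt before miR-138-5p and ends on its last base. The next base is U in Mir138-1 and A in Mir138-2, and in the overlapping transcripts the base before the stretch is A in Mir138-1 and G in Mir138-2.

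The mature sequences from RefSeq (GRCm38.p6) have their seeds in capitals.
miR-138-5p, from both genes: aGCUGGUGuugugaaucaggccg
miR-138-1-3p, from Mir138-1: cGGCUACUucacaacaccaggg
miR-138-2-3p, from Mir138-2: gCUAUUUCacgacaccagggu
No other mouse mature miRNA in the RefSeq table, of any name, has the seed of any of these 3 products. The 3p products overlap over 20 nt, of which 18 match. The 2 substitutions, counted from the 5′ end of miR-138-1-3p, are C7U and A13G. The seeds of the 3p products differ as well, because the products start at different bases and because C7U lies within the seed.

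All windows of 25 nt in either hairpin were unique among the hairpins of the tables. At 23 nt, the length of miR-138-5p, 2 of the 77 windows of Mir138-1 were shared, as were 2 of the 49 windows of Mir138-2. At 18 nt 7 windows of each hairpin were shared. In each case the only other gene was the sister copy. Among all M21 transcripts, miR-138-5p was present in both genes and in the transcripts that overlap them, and each 3p product at its own locus only. The genome outside annotated transcripts was not searched. A read that is exactly miR-138-5p therefore occurs at both loci, whereas a 3p read, or a 5p read that includes the base before the shared stretch or the templated base after it, occurs at a single locus. The tables give counts per gene, with no arm and no read length.

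Mir138-1 (ENSMUSG00000065414.1) lies on the plus strand of chromosome 9, positions 122682876 to 122682974 of mm10. It is inside an exon of Gm47135, a transcribed unprocessed pseudogene on the same strand. The nearest protein-coding gene, Topaz1, starts 64372 bp away. Mir138-2 (ENSMUSG00000065512.3) lies on the plus strand of chromosome 8, positions 94324311 to 94324381, inside an exon of the long noncoding RNA gene C78859. Slc12a3, which encodes the renal sodium chloride cotransporter, starts 4820 bp downstream. Neither gene has a clustered partner, as the nearest other miRNA gene is 408848 bp from Mir138-1 and 180665 bp from Mir138-2. In mouse the Mir138-2 precursor is known to be found in more tissues than mature miR-138. Precursors were not measured here.

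The 3′ UTR of mouse Lypla1 holds 1 match to the seed of miR-138-5p, shown because Lypla1 is the known spine target, with the 7 matching bases in capitals (mm10, chr1:4845034-4845055, plus strand, M21 transcripts).
Lypla1 site: gagtagaagttCACCAGCatca
The match starts at base 29 of a 3′ UTR of 1723 nt and is followed by an A, the base that faces position 1 of the miRNA in the strongest class of sites. The motif CACCAGC was searched on the transcribed strand of the longest annotated 3′ UTR of each gene. It occurred in 11.9% of 21020 genes, and in 15.1% of the 3154 genes whose 3′ UTR is 0.8 to 1.25 times as long as that of Lypla1. These shares count the 7 bases alone, whatever base follows, so they are not shares of sites followed by an A. A match is a description of the letters, and no target messenger RNA was measured.

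Both genes were abundant in the hippocampus, 43rd and 56th in mean level among the 401 detected miRNA genes. Mir138-1 had 8988 counts in replicate 2 and 11170 counts in replicate 1, which is 2633 CPM (exact Poisson 95% interval 2579 to 2688) and 4809 CPM (4721 to 4900). Its mean was 3721 ± 1539 CPM (SD, n = 2). Replicate 2 lay below replicate 1 by far more than counting error, and the spread between the libraries was 41.4% of the mean. These intervals cover counting error of independent reads only, and can be too narrow, since amplified reads without molecular identifiers are not independent molecules.

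Mir138-2 had 7184 counts in replicate 2 and 6241 counts in replicate 1, or 2104 CPM (2056 to 2153) and 2687 CPM (2621 to 2755). Its mean was 2396 ± 412 CPM (SD, n = 2), a spread of 17.2% of the mean. Replicate 2 was again the lower library. The summed level of the pair was 4737 CPM in replicate 2, against 7497 CPM in replicate 1, a mean of 6117 ± 1951 CPM, or 0.474% and 0.75% of all miRNA-gene counts. Almost no read lay on the opposite strand, with 0 counts in either library for Mir138-1 and with 1 count in replicate 2 and 0 in replicate 1 for Mir138-2.

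**Figure D1:**
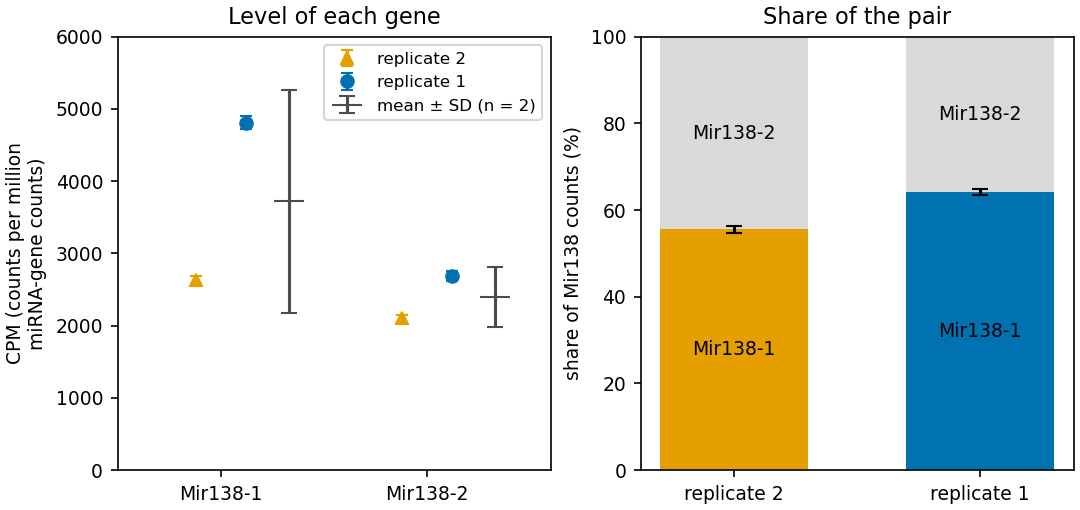
Left, CPM of Mir138-1 and Mir138-2 in replicate 2 (orange triangles) and replicate 1 (blue circles) with exact Poisson 95% intervals, and the mean with its SD in grey. Right, coloured bars give the share of the pair's counts (%) on Mir138-1 in each library, with Mir138-2 in grey, and exact binomial 95% intervals, 55.6% in replicate 2 and 64.2% in replicate 1.

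A gene is called detected here at 2 CPM or more in both libraries, which 401 of the 2202 genes reached, the Mir138 genes among them. By mean CPM Mir138-1 ranked 43rd of these 401, with rank 53 in replicate 2 and rank 38 in replicate 1. Mir138-2 ranked 56th, with rank 60 in replicate 2 and rank 51 in replicate 1. The neighbours of Mir138-1 in the order were Mir378a above, at 3784 ± 147 CPM, and Mir335 below, at 3666 ± 777 CPM. Mir138-2 stood between Mir485, at 2397 ± 41.2 CPM, and Mir674, at 2247 ± 122 CPM. Each of these 4 means lay within 1 SD of the mean of the Mir138 gene beside it, so the order at these places is not resolved.

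By Euclidean distance of log2(CPM + 1) over the 2 libraries, the genes nearest to Mir138-1 were Mir320, Mir335, Mir22, Mirlet7f-2 and Mir541, at 0.22 to 0.64. Those nearest to Mir138-2 were Mir187, Mir708, Mir674, Mir676 and Mir485, at 0.16 to 0.27. With 2 libraries this measures little more than the level. Mir320, the nearest to Mir138-1, was at 2669 CPM in replicate 2, against 4142 CPM in replicate 1. The level of Mir187, the nearest to Mir138-2, was 2028 CPM in replicate 2, against 2987 CPM in replicate 1. The choice by distance favours genes with a like difference between the libraries, so their direction is no separate result.

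Mir138-1 had more counts than Mir138-2 in both libraries, by a margin that differed between them. The ratio of Mir138-1 to Mir138-2 was 1.25 in replicate 2 and 1.79 in replicate 1. The mean log2 ratio of 0.58 was 1.59 times its SD of 0.37 (n = 2). No p is given for this excess, because 2 libraries cannot give a two-sided sign-flip p below 0.5. Scaling by hairpin length changed the order in replicate 2, but a read covers only part of a hairpin, whose length depends on the annotated ends. The shared stretch begins at base 22 of the Mir138-1 hairpin and at base 1 of the Mir138-2 hairpin. Divided by hairpin length, the order of the genes was reversed in replicate 2, with 90.8 counts per nt for Mir138-1 and 101 for Mir138-2, and kept in replicate 1, with 113 and 87.9.

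The balance between the copies differed between the libraries. Mir138-1 held 55.6% of the pair's counts in replicate 2 (exact binomial 95% interval 54.8 to 56.3) and 64.2% in replicate 1 (63.4 to 64.9). The mean was 59.9% ± 6.07 (SD, n = 2). The log2 odds ratio of replicate 2 over replicate 1 was -0.52 (95% interval -0.58 to -0.45, two-sided Fisher's exact p = 7.80e-58). The share is free of library scaling. The test compares 2 libraries and covers counting error only.

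That shift was set beside the other miRNAs made from a pair of loci. The tables hold 40 families with exactly 2 numbered copies, of which 19 reached a sum of 2 CPM in both libraries. By Fisher's exact test with Benjamini-Hochberg adjustment over these 19, the share of copy 1 differed between the libraries in 6, which is 31.6%, and the Mir138 pair was among them (adjusted p = 1.48e-56). The others were Mir128, Mir125b, Mir219a, Mir30c and Mir26a. The shift of the Mir138 pair, 8.58 percentage points, was the 4th widest of the 19, where the median was 2.58 points. Mir194 and Mir3074 had 0 counts on 1 copy in both libraries. Their share could not differ in these counts, yet they are among the 19 in the percentage, the rank and the median. A pair with nearly all its counts on 1 copy, such as Mir219a or Mir181b, moves few points for a given odds ratio. The rank and the median therefore hold for the scale of points only. Wider shifts were seen in Mir26a, Mir103 and Mir29b, whose sums were 43.1, 21.3 and 90.8 CPM. Of these only Mir26a passed the test, with adjusted Fisher's exact p = 0.098 for Mir103 and 0.052 for Mir29b. Passing depends on depth as well as on the shift. In replicate 2 the copies of Mir103 had 2 and 36 counts, against 8988 and 7184 for Mir138. The p-values therefore do not rank the shifts by size.

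**Figure D2:**
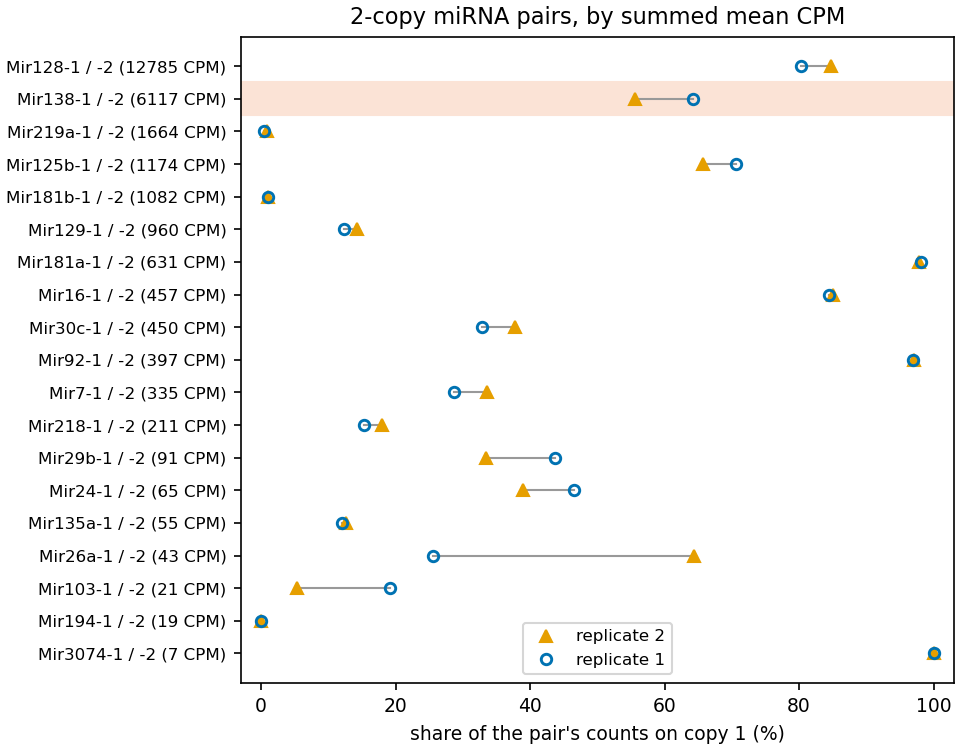
Share of a pair's counts on copy 1 (%) in replicate 2 (orange triangles) and replicate 1 (blue circles) for the 19 pairs of 2-copy miRNA genes at 2 CPM or more in both libraries, ordered from the highest summed mean CPM. The Mir138 pair, shaded, lies at 55.6% and 64.2%, whereas Mir219a, Mir181b, Mir181a and Mir92 lie near 0 or 100%. Mir194 lies at 0% and Mir3074 at 100% in both libraries, with no count on the other copy.

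Among these pairs Mir138 was the second most abundant and one of the few with a sizeable share of its counts on each locus. Its sum of 6117 CPM was below that of Mir128, at 12785 CPM, and above Mir219a, at 1664 CPM, Mir125b, at 1174 CPM, and Mir181b, at 1082 CPM. Of the 12 pairs with a sum of 100 CPM or more, 4 had at least 25% of the counts on the lesser copy in both libraries, a limit chosen after the values were seen. These were Mir138, Mir125b, which acts on the NMDA receptor subunit GluN2A, Mir30c and Mir7. The lesser copy of Mir138 held 44.4% in replicate 2 and 35.8% in replicate 1. That of Mir128 fell below the limit, at 15.2% and 19.8%, yet had 10357 counts in replicate 2 and 2585 in replicate 1. In contrast, the lesser copy of Mir219a, an oligodendrocyte miRNA, held 0.806% and 0.368%, and that of Mir181b 1.00% and 0.992%.

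In the 5 highest pairs the sequence the copies share stopped at the end of the mature product. For 33 of the 40 pairs the RefSeq table gives both copies the same mature sequence. In 10 of them, Mir138 included, the copies differ at the first base after that sequence. These 10 had a median sum of 740 CPM, and 5 reached 1000 CPM, namely Mir128, Mir138, Mir219a, Mir125b and Mir181b. In the other 23 the copies share 1 nt or more past it. Their median sum was 2.67 CPM, with 9 pairs at 0 in both libraries, and none reached 1000 CPM, with Mir129 the highest at 960 CPM. Sums of 100 CPM or more occurred in 6 of the 10 and in 6 of the 23. Mir19b and Mir196a, which share no base past the mature sequence, had 0.146 CPM each. The grouping was made after the levels had been seen, and it is a description of pairs whose expression in this tissue also differs, with no test.

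**Figure D3:**
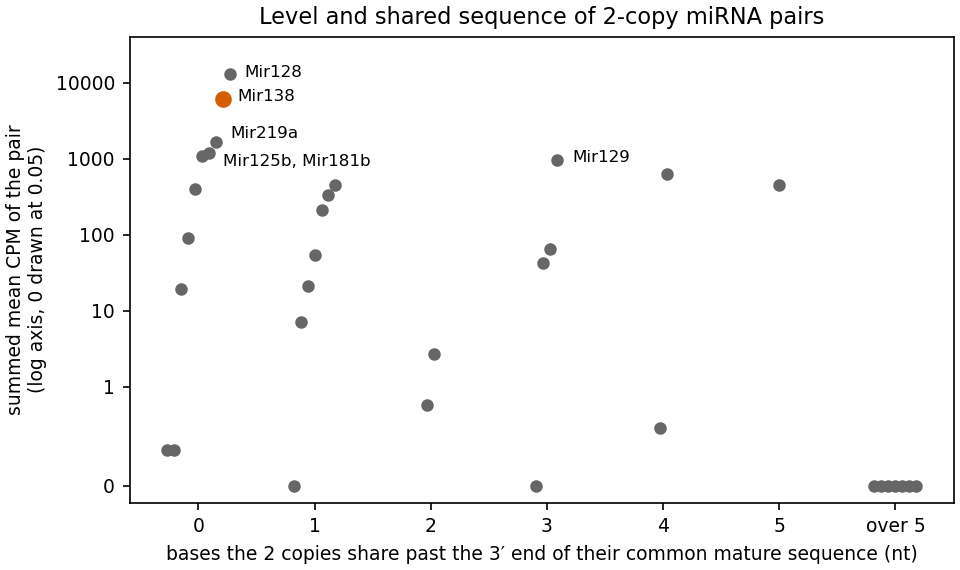
Summed mean CPM (log axis, 0 drawn at 0.05) of the 33 pairs of 2-copy miRNA genes with a common mature sequence, against the number of bases the copies share past its 3′ end, with the Mir138 pair in orange. The 5 pairs above 1000 CPM all share 0 nt there.

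Reads that map to several places were listed apart from the genes, and they were taken to be in no gene's count. There were 4604517 such reads in replicate 2, or 46.0% of the library, and 2743569 in replicate 1, or 42.6%. They outnumbered the counts of the Mir138 pair 285-fold in replicate 2 and 158-fold in replicate 1. How many of them were miR-138-5p is not given by the tables. The CPM of both genes is therefore a level of placed reads, and the part of read placement in the balance of the copies and in the difference between the libraries was not tested.

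Both Mir138 genes were lower in replicate 2 beyond counting error, as many abundant genes differed. Mir138-1 fell by 0.89 on the log2 scale (95% interval -0.93 to -0.85), to 0.538 times its level in replicate 1, with an adjusted p below 1e-300 by the exact binomial test with TMM library sizes and Benjamini-Hochberg adjustment over the 401 detected genes. Mir138-2 fell by 0.38 (-0.43 to -0.33), to 0.769 times (adjusted exact binomial p = 1.78e-50). The same test called 50.9% of the detected genes different, 22.7% lower and 28.2% higher in replicate 2. At the depth of the Mir138 genes nearly every gene passed, with 69 of the 74 detected genes between 1000 and 10000 CPM (93.2%), so passing it says little about these 2.

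The size of the difference places them better. The median detected gene differed 1.26-fold in either direction, and the median of the 74 genes between 1000 and 10000 CPM 1.22-fold. Mir138-1, which was 1.86-fold lower in replicate 2, was exceeded in size by 48 of the 401 genes and by 10 of those 74. Mir138-2, which was 1.30-fold lower, was exceeded by 172 and 28. The median log2 difference of all detected genes was 0.03 after TMM scaling, which itself centres most genes near 0, and 0.06 with plain totals.

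**Figure D4:**
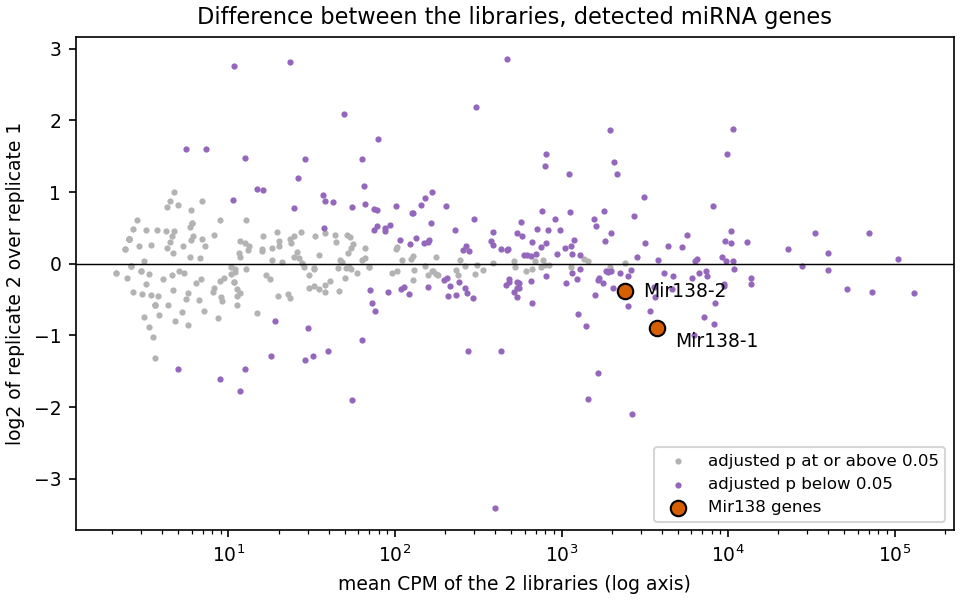
Log2 of replicate 2 over replicate 1 against mean CPM (log axis) for the 401 detected miRNA genes, with genes past the adjusted exact binomial threshold of 0.05 in purple and the others in grey. Mir138-1 at -0.89 and Mir138-2 at -0.38, in orange, lie on the lower side of the abundant genes.

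The Mir138 genes belong to a wider set of miRNAs known for roles at synapses and dendrites, and stood near its top in placed reads. Many members of the list come from several loci. Their reads that map to more than 1 place are taken to be in no count, so the order is not one of mature miRNA levels. The list of such genes, without Mir138, had 31 members, of which 29 were detected, with a median of 176 CPM. Mir138-1 was exceeded by 3 of them, and Mir138-2 also by Mir485, though by less than its SD. The 3 were Mir132, an activity-induced miRNA, at 10916 ± 278 CPM, Mir29a, which acts on the actin regulator Arpc3, at 10482 ± 1589 CPM, and Mir137, which is known to restrain dendrite growth, at 10433 ± 2456 CPM (SD, n = 2). Mir485, which is known to lower the vesicle protein SV2A, was at 2397 CPM. Mir134, which acts on Limk1 in rat dendrites and is also known to reduce spine size, reached 466 ± 61.0 CPM, below each Mir138 gene in both libraries.

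Mir134 was at 423 CPM in replicate 2, against 509 CPM in replicate 1, so it too was lower in replicate 2 (log2 -0.29, adjusted exact binomial p = 7.80e-07). Of the 29 detected members 17 passed the test, 13 of them higher and 4 lower in replicate 2, against 28.2% and 22.7% of all detected genes. The 4 lower ones were Mir132, Mir381, Mir134 and Mir34a. Mir34a, at 262 CPM in replicate 2, against 601 CPM in replicate 1, was the member farthest below. The median log2 difference of the detected members was 0.25, whereas both Mir138 genes were below 0. At the bottom of the list, the 3 Mir124a genes, whose neuronal mature product is known to be the same from each locus, had at most 11 counts in a library.

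**Figure D5:**
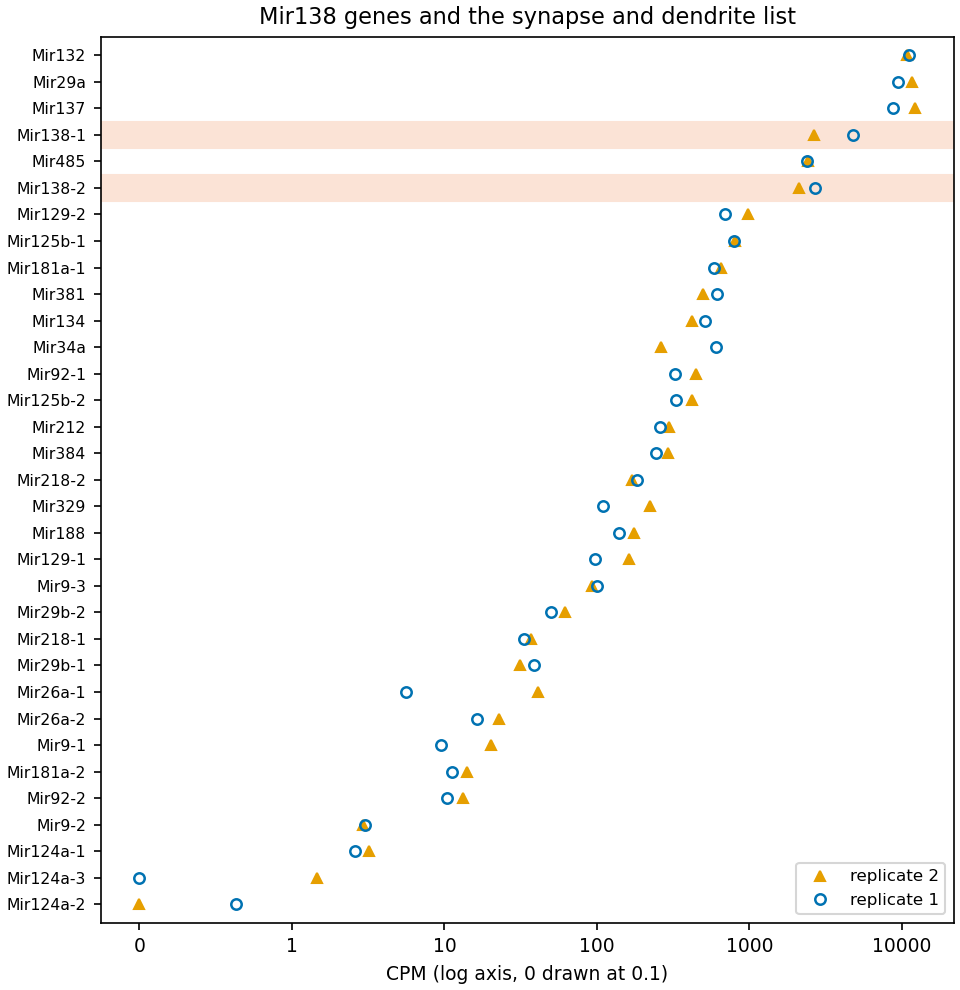
CPM (log axis, 0 drawn at 0.1) of the Mir138 genes, shaded, and the 31 members of the synapse and dendrite list in replicate 2 (orange triangles) and replicate 1 (blue circles), ordered by mean. Mir132, Mir29a and Mir137 stand above Mir138-1, and Mir485 also above Mir138-2.

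Markers of the cell types in hippocampal tissue also differed between the libraries. The neuron-enriched list of 22 genes, which holds both Mir138 genes, added up to 51013 CPM in replicate 2, against 35304 CPM in replicate 1, with 20 detected, so its sum went opposite to the Mir138 genes. Most of that difference was Mir128-1, at 16906 CPM in replicate 2, against 4518 CPM in replicate 1. Oligodendrocyte markers (3 of 3 detected) summed to 2683 and 4367 CPM, and erythrocyte markers (3 of 3) to 1149 and 1922 CPM, in replicates 2 and 1. The lower oligodendrocyte sum was mostly Mir219a-2, at 865 and 2447 CPM, whereas Mir338 differed little, at 1811 and 1911 CPM. The lower erythrocyte sum was Mir451a, at 1007 and 1807 CPM, whereas Mir144 was higher in replicate 2, at 121 and 94.7 CPM. Endothelial markers (1 of 2 detected, Mir126b at 0) summed to 12474 and 14889 CPM in the same order. Mural and smooth muscle markers (2 of 3, Mir145b at 0) had 6935 and 6456 CPM, microglial and leukocyte markers (5 of 6) 1601 and 1262 CPM, and choroid plexus markers (4 of 7, Mir449b at 0) 995 and 1052 CPM. Within the microglial list Mir150 was higher and Mir146 lower in replicate 2, and within the choroid plexus list Mir204 and Mir34b were higher and Mir34c was lower, all past the test. In tissue RNA fewer cells of a type and less RNA per cell cannot be told apart. The part of the cell makeup in the difference of the Mir138 genes was not tested.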

How the data were processed

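Small RNA libraries from the hippocampus of 2 samples in 1 group were used. The authors deposited 1 table of read counts per miRNA gene for each library, whole numbers without normalization, with columns for both strands, the gene's strand and the opposite strand, as the values show. The assembly was mm10 and the annotation GENCODE M21, per the deposited file descriptions and the labels. The aligner, counter and settings are not given in the sources used here.

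Counts of the gene's strand were used. The 4 rows that name no gene stayed out of totals and tests. Of all reads in replicate 2, 15.1% were unmapped, 46.0% mapped to several places, 4.70% met no feature and 0% were ambiguous. In replicate 1 these shares were 16.2%, 42.6%, 5.16% and 0%. CPM is counts scaled to a sum of 1000000. A count of 0 allows up to 3 counts, 0.879 CPM in replicate 2 and 1.29 CPM in replicate 1.

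Libraries were compared by two-sided exact binomial tests with TMM effective sizes from edgeR 4.0.16 (R 4.3.3), adjusted over 401 genes at 0.05, with 0.5 added to counts in log2 ratios. Copy shares used Fisher's exact test (scipy 1.17.1). With 1 group no quasi-likelihood contrast exists. Alternatives were the both-strand counts, other totals, DESeq2 1.42.0 size factors, other filters, length scaling and leaving out each library.

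The named genes are the Mir138 genes, for each its 5 nearest detected genes over the 2 libraries and its neighbours in mean CPM, detected list members, and 2-copy pairs at 100 CPM or more. The choice of any pair below that level was made with its values in view. The members and lists were chosen with earlier results of these data known. Sequences came from M21 and RefSeq tables, in which both members matched.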

Additional observations from a re-analysis of the deposited data

How the results depend on the processing

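Counting error limits little here, since the lowest Mir138 count was 6241, whereas 2 libraries of 1 group limit every statement on spread. Per 1000000 of all reads the mean levels were 1316 for Mir138-1, 844 for Mir138-2 and 2160 for the pair. With the 5 most abundant genes left out of the total they were 6613, 4234 and 10847 CPM. Divided by hairpin length, the mean share of Mir138-1 was 51.8%, from 47.3% in replicate 2 and 56.2% in replicate 1. Hairpin length depends on the annotated ends, so this share is a description and not a correction. With each library left out, Mir138-1 was at 2633 to 4809 CPM, Mir138-2 at 2104 to 2687 CPM, the pair at 4737 to 7497 CPM and the share at 55.6 to 64.2%. Under the 6 other scalings, filters and columns the log2 difference of replicate 2 over replicate 1 lay between -0.95 and -0.87 for Mir138-1 and between -0.43 and -0.35 for Mir138-2, always past the threshold. The number of differing genes was 184 to 210, against 204, but out of unequal numbers tested. It was 210 of 715 genes (29.4%) with no filter and 191 of 299 (63.9%) at 10 CPM or more, against 204 of 401 (50.9%). No paired analysis was possible because there is only 1 group.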
